A study of Homo sapiens with 3 samples.

Results

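ABC transporters are a family of human genes whose proteins bind and hydrolyse ATP, most of them to move a substrate across a membrane. Taken here were the genes with a coding (NM) transcript in the footprint tables and a symbol made of ABC, a subfamily letter from A to G and a number, which gave 45 of 19262 coding genes. They comprised 12 genes of subfamily A, 9 of B, 11 of C, 4 of D, 1 of E, 3 of F and 5 of G, with 86 coding transcripts in all. Family members under other names (TAP1, TAP2 and CFTR) were left out of the group by this rule. Ribosome footprints, the stretches of RNA that ribosomes shield from nuclease, were sequenced in 3 human lung cell lines grown in complete DMEM under normal conditions: HBE, a bronchial epithelial line, and the non-small cell lung cancer lines A549 and H1299. Each line gave 1 library, so a ratio between lines compares 2 libraries, it has no replicate check and it carries no p-value. The libraries held 34505579 (HBE), 31304697 (A549) and 28478839 (H1299) reads on coding transcripts.

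The members of this family do different work. Subfamily C holds most of the multidrug resistance proteins (MRPs), which export drugs and the glutathione, glucuronide and sulfate conjugates that detoxifying enzymes make, and ABCG2 and ABCB1 (P-glycoprotein) are broad drug pumps as well. Subfamilies A and G mainly move lipids and sterols, several B members work in mitochondria, and D members in peroxisomes. ABCE1 and the ABCF proteins have no membrane part and act on ribosomes. Several of the conjugate pumps are known targets of NRF2, a transcription factor that KEAP1 holds down and that is known to be active in A549 cells because KEAP1 is mutated there.

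The shared feature of the family is a pair of ATP-binding folds, each with a Walker A motif, a loop around the phosphates of ATP that reads glycine, any 4 residues, glycine, lysine, and serine or threonine. In the longest open reading frame of each gene in GENCODE, all 27 products of 1257 residues or longer held 2 such motifs, as full transporters do. Of the 18 shorter products (599 to 846 residues), 13 held 1 motif, as transporters that must pair up to work do, and ABCE1, ABCF1, ABCF2 and ABCF3 held 2. ABCG8 held no match to this spelling. The stricter signature motif of the fold, spelled LSGGQ, was found at least once in 25 of the 45 products. The coding sequences of the Walker A motif are shown for ABCC1, ABCC2, ABCC3, ABCG2 and ABCB6, genes that were higher in A549 than in both other lines, with the codons for its last 3 residues (glycine, lysine and serine) in capitals. ABCC1, ABCC2 and ABCC3 have a first and a second motif, whereas ABCG2 and ABCB6 have only one. The positions are from hg19: ABCC1 exons 16 and 29, chr16:16173252-16173275 and chr16:16228219-16228242; ABCC2 exons 16 and 29, chr10:101572818-101572841 and chr10:101605393-101605416; ABCC3 exons 16 and 28, chr17:48746544-48746567 and chr17:48761322-48761345; ABCG2 exon 4, chr4:89053730-89053753; and ABCB6 exon 14, chr2:220077187-220077210. ABCG2 and ABCB6 lie on the minus strand and the MRP genes on the plus strand.
ABCC1 first: ggccaggtgggctgcGGAAAGTCG
ABCC1 second: gggcggacgggagctGGGAAGTCG
ABCC2 first: ggccctgtcggctctGGGAAATCC
ABCC2 second: ggcaggacaggagctGGAAAGTCA
ABCC3 first: gggcctgtgggctgtGGGAAGTCC
ABCC3 second: ggccgcactggggctGGCAAGTCT
ABCG2: ggacccacaggtggaGGCAAATCT
ABCB6: ggcccatctggggcaGGGAAGAGC

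Most ABC genes lay below a background level in every line, and 9 of them stood above it in all 3 lines. The level of a gene is given as its reads per kilobase of its longest coding transcript, with each library scaled to 1000000 coding reads. As a background, the 95th percentile of 377 olfactory receptor genes was used, odorant receptors that lung cells are not known to make but that carried 20, 27 and 23 reads at the median in HBE, A549 and H1299. For HBE, A549 and H1299 this level was 4.24, 6.13 and 6.15. Above it lay 13 ABC genes (28.9%) in HBE, where 38.5% of all coding genes did. A549 had 16 such ABC genes (35.6%, beside 33.6% of coding genes), and H1299 had 10 (22.2%, beside 32.9%). The genes above it in all lines included ABCA12, ABCA8, ABCC10, ABCD3, ABCE1, ABCF1, ABCF2 and ABCF3. In 28 ABC genes the level stayed below it in every line, and footprints at such a level cannot be told here from reads on genes that the cells do not use. The remaining 8 were above it in some lines only: ABCB6, ABCC1, ABCC2, ABCC3, ABCC4, ABCC9, ABCG1 and ABCG2. With the 99th percentile in place of the 95th, 1, 1 and 2 ABC genes stood above the level, so that this count rests on the percentile. Above the median of the olfactory receptors lay 40 ABC genes in each line. ABC genes had a median level of 2.10, 3.43 and 2.64 in HBE, A549 and H1299, and coding genes one of 2.71, 3.33 and 3.26.

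**Figure D1:**
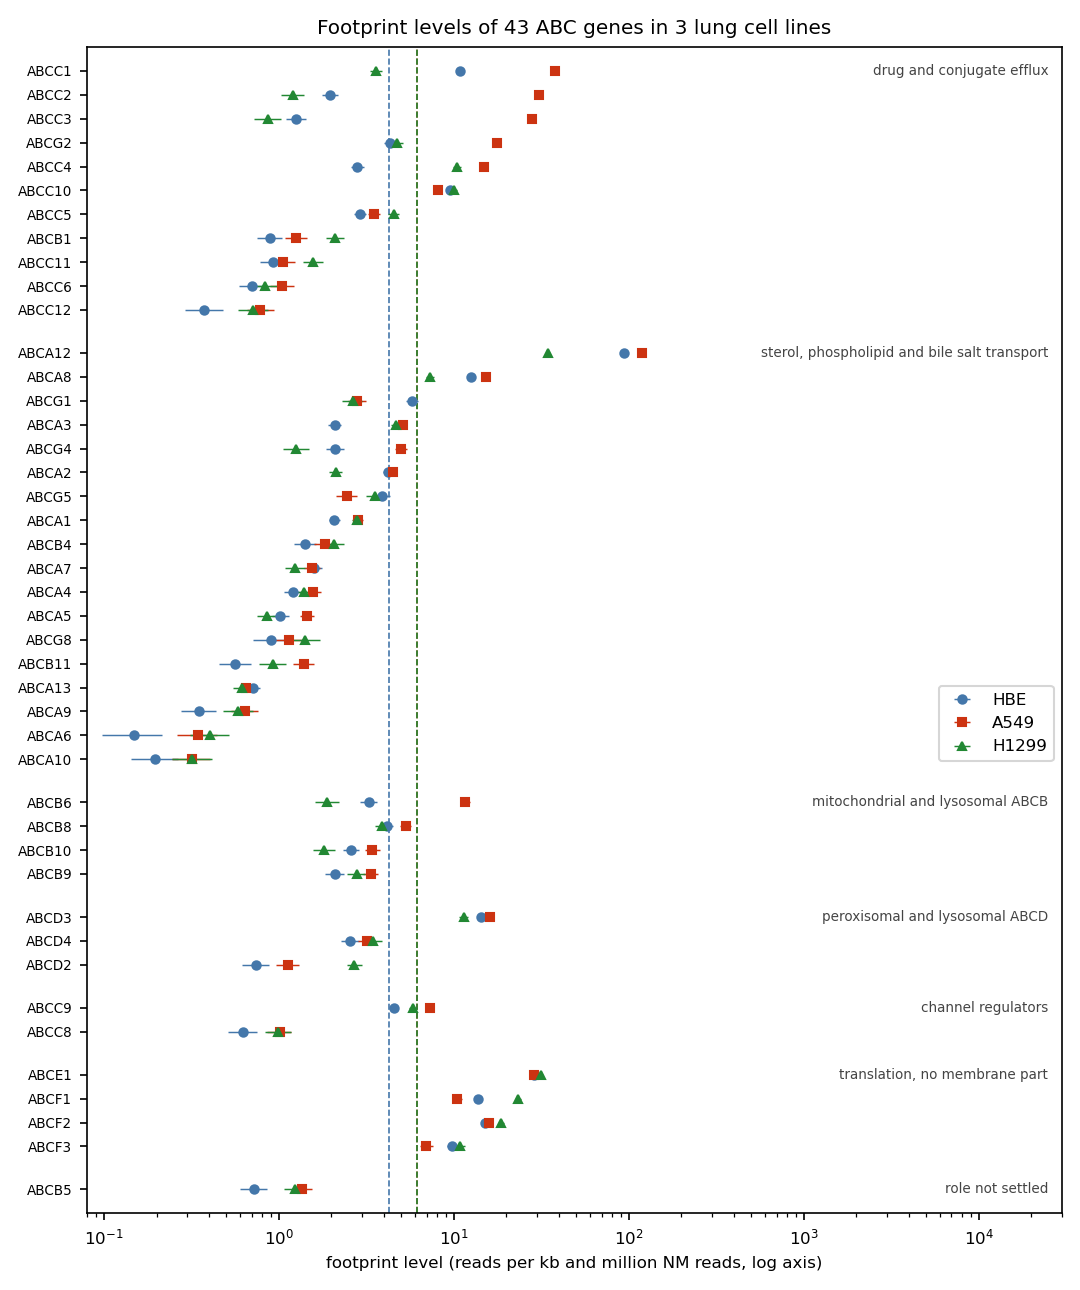
Footprint level of the ABC genes reported here, in reads per kilobase at 1000000 coding (NM) reads on a log axis, by role and line, 1 library per line. Bars are 95% Poisson intervals (counting error only) and dashed lines mark the 95th percentile of olfactory receptors in each line, at 4.24 in HBE and, nearly on each other, 6.13 in A549 and 6.15 in H1299. ABCA12 is highest in each line, and ABCC2 and ABCC3 lie far to the right in A549 alone. ABCC1 is highest in A549 but lies above the dashed line in HBE too.

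ABC genes carried more of the coding reads in A549 than in the other lines. They held 1758, 2715 and 1287 scaled reads in HBE, A549 and H1299. ABCA12 alone took 48.8%, 39.9% and 24.6% of these reads, and without it the sums were 901, 1631 and 969.6. ABCC1, ABCC2 and ABCC3 together accounted for 88.8, 562 and 34.6 scaled reads. Of the 45 genes, 25 (55.6%) had their highest level in A549, 16 in H1299 and 4 in HBE. Of all coding genes 38.9% were highest in A549, 44.05% in H1299 and 17.0% in HBE. These counts take no account of counting error, include genes below the olfactory receptor level and were made with a single scaling.

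Between lines, 11 of the 45 ABC genes (24.4%) differed in some pair by over 2-fold beyond counting error, beside 19.6% of 18698 coding genes, and in 60% of the ABC genes the highest level was under 2 times the lowest, beside 66.1% of coding genes. By both counts the family was near the background. A gene was called higher or lower where it had at least 20 reads over both libraries and the exact 95% counting interval of its ratio lay wholly beyond 2-fold. All 45 ABC genes had enough reads in each pair. In A549 against HBE 8 were called higher (17.8%) and 0 lower, beside 6.14% and 3.36% of coding genes. In H1299 against HBE 3 were higher (6.67%) and 2 lower (4.44%), beside 8.05% and 4.94%, which is near the background. In H1299 against A549 2 were higher (4.44%) and 7 lower (15.6%), beside 4.09% and 4.82%. The 3 pairs share libraries, so that a gene high in A549 enters both comparisons with that line. The median log2 ratio of the ABC genes in these 3 pairs was 0.40, 0.24 and -0.13, beside 0.35, 0.38 and 0.02 for all coding genes tested. Taken relative to these coding medians the median of the ABC genes lay at 0.05, -0.13 and -0.15, close to that of all coding genes. The 8 genes higher in A549 than in HBE lay between 0.90 (ABCG4) and 4.13 (ABCC3) above the coding median on the log2 scale, and the 3 higher in H1299 than in HBE between 0.79 (ABCA3) and 1.52 (ABCC4). With TMM factors, which move the coding medians to 0.01, 0.02 and -0.0033, the calls became 6 higher and 1 lower in A549 against HBE, 2 and 5 for H1299 over HBE, and 1 and 7 in H1299 against A549.

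**Figure D2:**
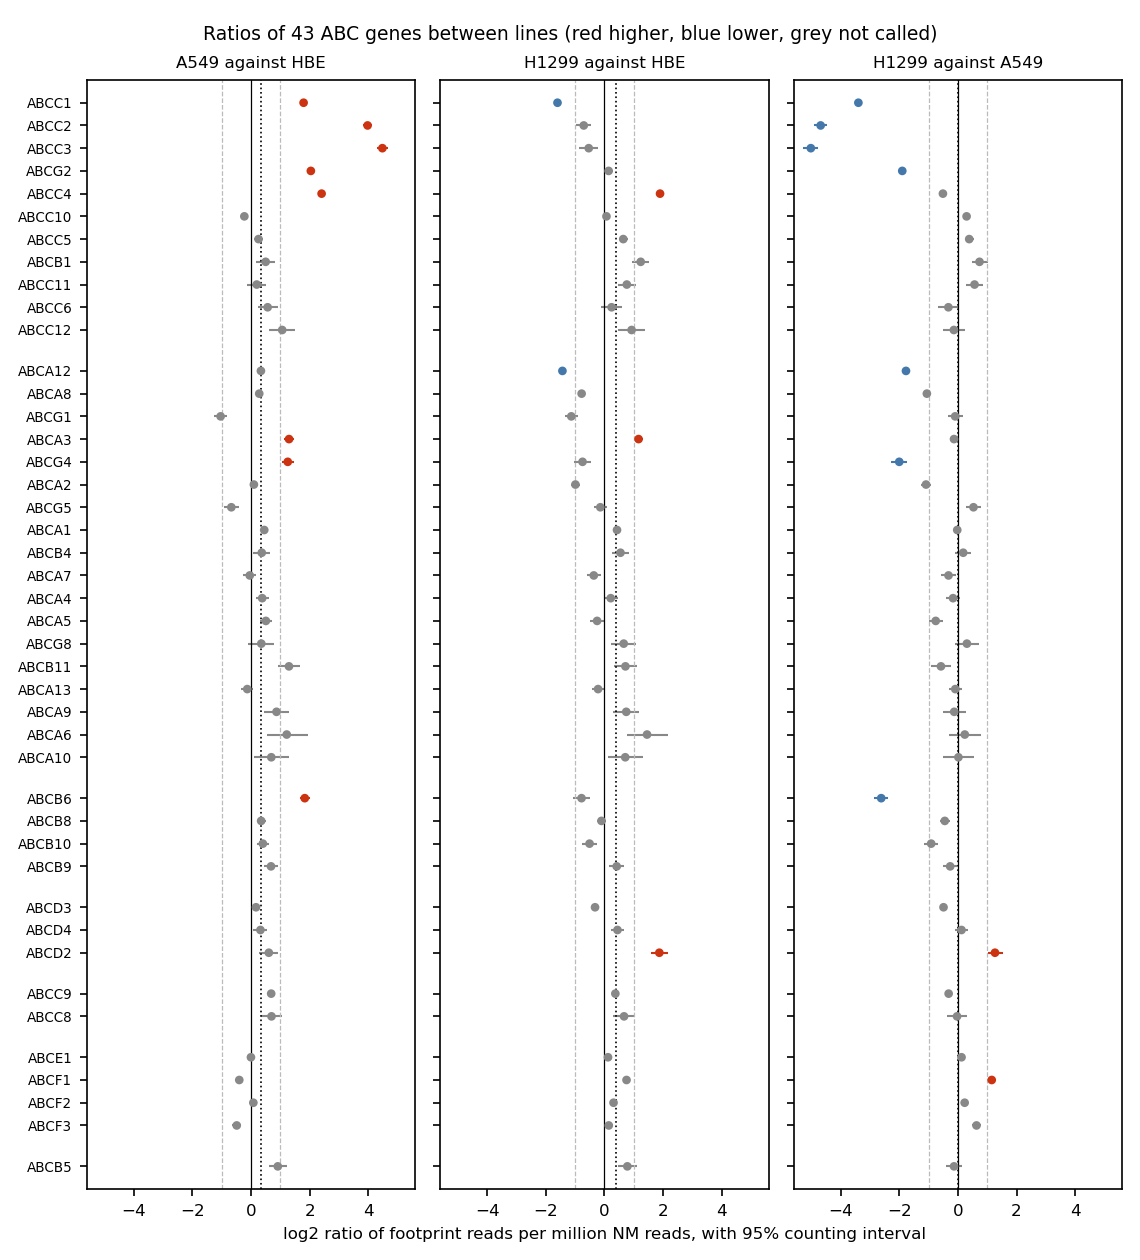
Log2 ratio of the ABC genes reported here in the 3 pairs of lines, with 95% counting intervals; red genes were called higher and blue genes lower, dashed lines mark 2-fold and the dotted line the median of all coding genes (0.35, 0.38 and 0.02). ABCC2 and ABCC3 lie furthest from the line of no difference in both pairs with A549.

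The efflux pumps held the widest differences, with 5 of the 11 drug and conjugate pumps higher in A549 than in HBE and 4 of the 11 lower in H1299 than in A549. Of all coding genes 6.14% and 4.82% were so called. The median log2 ratio of these 11 genes in the same order of pairs was 1.06, 0.24 and -0.32, beside 0.35, 0.38 and 0.02 for coding genes. The first of these medians is the value of ABCC12, which was not called and was below the background level in each line. ABCC3 (MRP3), which exports bile salts and glucuronides at the basolateral side of cells, lies at chr17:48712138-48769614 (plus strand) in hg19. It had 225 (95% Poisson interval 197 to 256), 4565 (4434 to 4699) and 128 (107 to 152) reads in HBE, A549 and H1299. Only the A549 library was high, since the level of ABCC3 was 1.26 in HBE and 0.867 in H1299, both below the olfactory receptor level, and 28.1 in A549. The ratio was 22.4 in A549 over HBE (95% interval 19.6 to 25.7) and 32.4 in A549 over H1299 (27.2 to 39.0).

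ABCC2 (MRP2), the pump that sends conjugated bilirubin into bile, showed the same order. Its gene lies at chr10:101542397-101612351 (plus strand). It had 368 (331 to 408), 5260 (5119 to 5404) and 186 (160 to 215) reads in HBE, A549 and H1299, at levels of 1.96, 30.9 and 1.20. A549 was 15.8 times higher than HBE (14.2 to 17.6) and 25.7 times higher than H1299 (22.2 to 29.9). In HBE and H1299, ABCC2 was thus also below the olfactory receptor level. The ratio between those lines was 1.63 in favour of HBE (1.37 to 1.96) and for ABCC3 it was 1.45 (1.16 to 1.82).

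ABCC1 (MRP1), which exports glutathione conjugates and the leukotriene LTC4, was by contrast well above the background in HBE too. It lies at chr16:16042995-16237114 (plus strand) and had 2471, 7773 and 671 reads in HBE, A549 and H1299, at levels of 10.9, 37.8 and 3.59. The order of the lines was thus A549, HBE, H1299, with H1299 below the olfactory receptor level. A549 was 3.47 times higher than HBE (3.31 to 3.63), HBE 3.04 times higher than H1299 (2.79 to 3.32) and A549 10.5 times higher than H1299 (9.74 to 11.4). ABCC1 was the only ABC gene called in all 3 pairs.

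ABCG2, the breast cancer resistance protein, exports drugs, urate and porphyrins and lies at chr4:89011302-89152780 (minus strand). It had 661 reads in HBE against 2469 in A549 and 602 in H1299, at levels of 4.31, 17.7 and 4.76. In HBE this was just above the olfactory receptor level of 4.24, and in H1299 it was below that of 6.15. A549 was 4.12 times higher than HBE (3.78 to 4.49) and 3.73 times higher than H1299 (3.41 to 4.09), and H1299 over HBE was 1.10 (0.986 to 1.23). ABCC4 (MRP4), a pump of cyclic nucleotides and prostaglandins at chr13:95672089-95953729 (minus strand), was the one pump higher in both cancer lines than in HBE. It had 566, 2726 and 1739 reads in HBE, A549 and H1299, at levels of 2.81, 14.9 and 10.5, of which that in HBE was below the olfactory receptor level. The ratio to HBE was 5.31 in A549 (4.85 to 5.82) and 3.72 in H1299 (3.38 to 4.10), while A549 was only 1.43 times higher than H1299 (1.34 to 1.52).

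**Figure D3:**
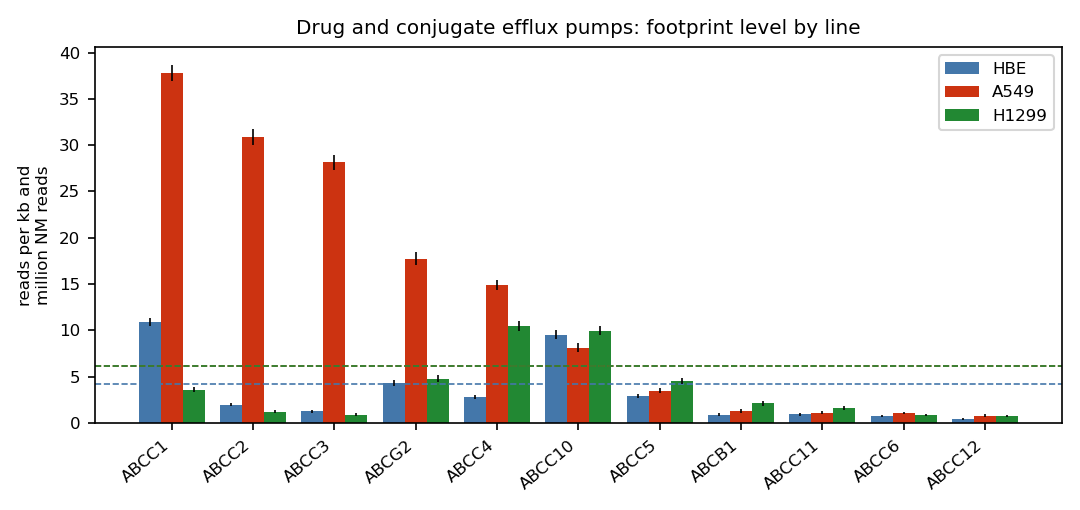
Footprint level of the 11 drug and conjugate efflux genes by line, in reads per kilobase at 1000000 coding reads, with 95% Poisson intervals; dashed lines are the olfactory receptor level of each line. ABCC1, ABCC2, ABCC3, ABCG2 and ABCC4 are highest in A549, at 37.8, 30.9, 28.1, 17.7 and 14.9, while ABCC10 lies between 8.12 and 9.97 and ABCB1, ABCC5, ABCC6, ABCC11 and ABCC12 stay low.

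The other pumps were not called in any pair. ABCB1, the P-glycoprotein gene of classical multidrug resistance, had 145 reads in HBE against 186 in A549 and 282 in H1299. Its level of 0.891, 1.26 and 2.10 was below the olfactory receptor level in each line, and the ratio of H1299 over HBE was 2.36 (1.92 to 2.90), just short of a call. ABCC10 (MRP7), with 1680, 1301 and 1453 reads, was the one pump above the background in all 3 lines, at levels of 9.51, 8.12 and 9.97. ABCC5 (MRP5), an exporter of cyclic nucleotides, had 589, 638 and 758 reads. ABCC6, ABCC11 and ABCC12 had between 67 and 217 reads in each library.

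Genes of glutathione synthesis and conjugation, which make the substrates of the MRPs, went both ways between the lines. Of 24 listed genes, 23 had enough reads in A549 against HBE, and 6 were higher and 3 lower, with a median log2 ratio of 0.43 beside 0.35 for all coding genes. In H1299 against HBE 2 were higher and 7 lower, and in H1299 against A549 1 was higher and 7 lower. The widest ratios of the list were those of GSTA4, GSTM2, MGST1 and GSTT1, all glutathione transferases. GSTA4 had 13, 173 and 241 reads in HBE, A549 and H1299, GSTM2 had 15, 86 and 211, and GSTT1 had 270, 16 and 26. Both cancer lines thus differed from HBE, with GSTA4 and GSTM2 higher and GSTT1 lower, so that these cytosolic enzymes went in both directions. H1299 had 533 reads of MGST1, the microsomal enzyme, against 6445 in HBE and 8897 in A549. GCLC and GCLM, the subunits of the enzyme that starts glutathione synthesis, and UGDH, which makes UDP-glucuronic acid for glucuronidation, were singled out after their values were seen. They were 4.95, 2.98 and 8.59 times higher in A549 than in HBE, and each was called lower in H1299 than in A549.

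Carriers that take organic ions into the cell work in the opposite direction to the pumps. Of 19 listed SLCO and SLC22 uptake carriers, 1 was called higher in A549 than in HBE, none in H1299 than in HBE, and 1 lower in H1299 than in A549. In both cases the gene was SLC22A3, an organic cation transporter, with 32, 2263 and 50 reads in HBE, A549 and H1299. Of 11 genes listed as regulators of the pumps none was called in A549 against HBE. NFE2L2, the gene of NRF2, named here after its values were seen, had 3990 reads in HBE against 2418 in A549 and 1450 in H1299, and its ratio of A549 over HBE was 0.668, not called. In H1299 against HBE, 5 of these regulators were lower, among them NFE2L2, MAFK, AHR and HIF1A.

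Short sequences like the binding site of NRF2 were searched near the start of the ABC genes, in RefSeq promoters (GRCh38.p14) that run from 250 bases before to 50 after the gene start and were given for 35 of the 45 genes. The core of the antioxidant response element, TGACNNNGC on either strand, was found in 7 of these 35 (20%), beside 14.3% of 14179 promoters of coding genes. The 7 were ABCA3, ABCB6 and ABCC4, which were higher in A549 than in HBE, and ABCA2, ABCA5, ABCD4 and ABCF1, which were not, ABCF1 having its lowest level in A549. Of the other genes higher in A549, ABCC2, ABCG2 and ABCG4 held no match in this window, and for ABCC1 and ABCC3 no promoter was searched. The 6 matches before the gene start are printed with 20 bases on each side, 5′ to 3′ on the strand of the gene and with the match in capitals, to show the site in promoters of genes that were and were not higher in A549. The windows lie at chr16:2340897-2340945 (ABCA3), chr2:219219082-219219130 (ABCB6), chr13:95301572-95301620 (ABCC4), chr9:137029007-137029055 (ABCA2), chr14:74303074-74303122 (ABCD4) and chr6:30571276-30571324 (ABCF1), with ABCF1 on the plus strand and the others on the minus strand. In ABCC4, ABCA2, ABCD4 and ABCF1 the core is read on the strand opposite to the gene.
ABCA3: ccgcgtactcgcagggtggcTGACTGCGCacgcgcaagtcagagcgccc
ABCB6: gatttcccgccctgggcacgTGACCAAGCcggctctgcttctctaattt
ABCC4: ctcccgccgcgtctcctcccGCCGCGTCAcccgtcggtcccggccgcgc
ABCA2: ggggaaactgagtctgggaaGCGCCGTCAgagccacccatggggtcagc
ABCD4: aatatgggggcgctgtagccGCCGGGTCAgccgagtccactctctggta
ABCF1: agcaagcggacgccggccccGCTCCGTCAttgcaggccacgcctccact

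Among the mitochondrial and lysosomal members of subfamily B, ABCB6 alone was called. ABCB6, a porphyrin transporter that also carries the Langereis blood group, lies at chr2:220074494-220083716 (minus strand). It had 340 (305 to 378), 1100 (1036 to 1167) and 163 (139 to 190) reads in HBE, A549 and H1299, at levels of 3.26, 11.6 and 1.89. Only in A549 was it above the olfactory receptor level. A549 was 3.57 times higher than HBE (3.15 to 4.04) and 6.14 times higher than H1299 (5.20 to 7.28). ABCB8 had 682, 786 and 524 reads, ABCB10, which supports heme synthesis, had 345, 414 and 200, and ABCB9, a lysosomal peptide transporter, had 255, 371 and 281. Of 16 partner genes of iron-sulfur and heme synthesis, 1 was higher in A549 than in HBE. This was ALAS1, the first enzyme of heme synthesis, at 2.91 times, which was also 2.95 times higher in H1299 than in HBE. PPOX, a later enzyme of the pathway, was 2.50 times higher in H1299 than in HBE, and UROD, another, 2.93 times higher in H1299 than in A549.

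The lipid transporters were mostly at background level, and the highest of them, ABCA12, was also the highest ABC gene of each library. ABCA12, which loads glucosylceramide into the lamellar granules of keratinocytes, lies at chr2:215796266-216003349 (minus strand). It had 29581 reads in HBE against 33908 in A549 and 9026 in H1299, at levels of 94.1, 119 and 34.8. H1299 stood apart, with HBE 2.70 times higher (2.64 to 2.77) and A549 3.42 times higher (3.34 to 3.50), whereas A549 over HBE was 1.26 (1.24 to 1.28). Nearly all of these reads, 29580, 33907 and 9025, were on 1 of the 2 coding transcripts, NM_173076 of 9112 nt. No stretch of 28 nt of the GENCODE transcript of ABCA12 occurs on the same strand in a transcript of another gene. The positions of the reads along the transcript were not analysed here, so that reads spread over the coding region cannot be told from a pile-up at 1 site, for ABCA12 and for ABCA8 alike, and the rank of ABCA12 and its share of the family's reads hold for read counts only.

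ABCA8, a lipid transporter known from brain and liver, was the gene whose reads lay on other transcripts in another line. It had 2609, 2874 and 1254 reads in HBE, A549 and H1299 and was not called, although with TMM factors it was lower in H1299 than in HBE. Its transcript NM_001288986 (5836 nt) had 2355 reads in HBE against 2492 in A549 and 242 in H1299, which was 90.3%, 86.7% and 19.3% of the coding reads of the gene. Its transcript NM_001288985 (6012 nt) had 252, 374 and 1006 reads, or 9.66%, 13.0% and 80.2%. The first was 8.03 times higher in HBE than in H1299 (7.03 to 9.21) and the second 4.84 times higher in H1299 than in HBE (4.21 to 5.58), so that the sum over the gene hid opposite differences. This pair was singled out after its values were seen. Of the 24 ABC genes with several coding transcripts, 22 had the same leading transcript in all lines. The other exception was ABCB5, a gene known from melanoma and limbal stem cells, with only 134 to 229 reads. The leading transcript held a median of 94.1%, 95.3% and 95.5% of the reads of such genes in HBE, A549 and H1299. The transcripts of a gene can share most of their sequence, and the sources give the FANSe2 settings for the footprints without saying in words how a read that fits several transcripts was counted, so these shares are no measure of isoform use.

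**Figure D4:**
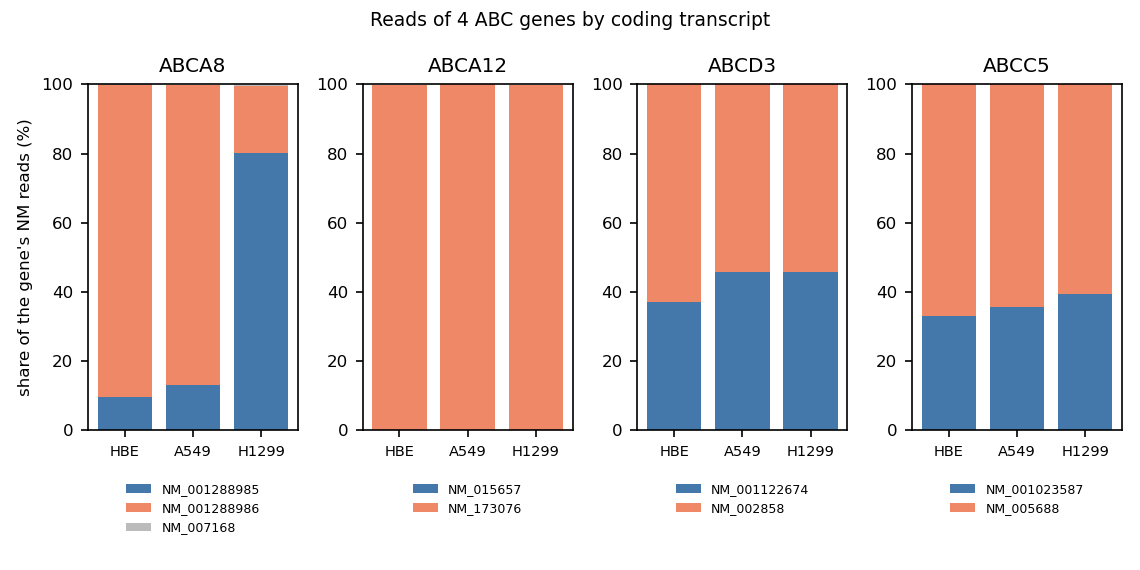
Share of each gene's coding reads on its coding transcripts in HBE, A549 and H1299, in percent, for ABCA8, ABCA12, ABCD3 and ABCC5. In ABCA8 the leading transcript differs in H1299, where NM_001288985 holds 80.2% of the reads, while in ABCA12 one transcript takes nearly all reads of each line.

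ABCA3, which fills the lamellar bodies of alveolar type 2 cells with surfactant lipid, was higher in both cancer lines. It lies at chr16:2325882-2390747 (minus strand) and had 476, 1061 and 880 reads in HBE, A549 and H1299, at levels of 2.08, 5.12 and 4.67. Both cancer lines were thus above HBE, but all 3 levels were below the olfactory receptor level. The ratio to HBE was 2.46 in A549 (2.20 to 2.74) and 2.24 in H1299 (2.001 to 2.51). Neither was called with TMM factors, which gave log2 ratios of 0.96 and 0.80. SFTPC and SFTPB, surfactant protein genes of the same alveolar cells, had 29 to 112 reads in each library.

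Of the sterol exporters, ABCG1 was highest in HBE, ABCG4 in A549, and ABCA1 differed little. ABCG1, which hands cholesterol to HDL particles, had 627 reads in HBE against 277 in A549 and 236 in H1299, at levels of 5.78, 2.82 and 2.64. HBE alone was above the olfactory receptor level. HBE was 2.05 times higher than A549 (1.78 to 2.37) and 2.19 times higher than H1299 (1.88 to 2.56), short of a call, and both differences were called with TMM factors. ABCG4, a relative of ABCG1 known from brain, lies at chr11:119019762-119033362 (plus strand) and had 281, 608 and 138 reads, 2.38 times higher in A549 than in HBE (2.07 to 2.76) and 4.01 times higher than in H1299 (3.33 to 4.86). Its levels of 2.10, 5.01 and 1.25 were below the background level, and the call against HBE was lost with TMM factors (log2 ratio 0.91). ABCA1, which exports cholesterol to apolipoprotein A-I, had 754, 935 and 837 reads at levels of 2.08, 2.84 and 2.80. Of 15 partner genes of sterol export, 0 were called in A549 against HBE, and 1 was higher and 1 lower in H1299 against either line. These were APOE, a lipoprotein that receives exported sterol, with 45, 66 and 997 reads in HBE, A549 and H1299, and RXRA, with 2046, 1257 and 499.

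ABCA2, a transporter of endolysosomes, had 1183, 1148 and 491 reads and was 1.99 times higher in HBE than in H1299 (1.79 to 2.21). It was not called there, but was with TMM factors. The remaining lipid and bile salt transporters, ABCA4 to ABCA7, ABCA9, ABCA10, ABCA13, ABCB4, ABCB11, ABCG5 and ABCG8, had between 27 and 423 reads in each library. None of them was called or above the background level, and the lowest levels of the whole family were those of ABCA6 and ABCA10, at 0.148 and 0.196 in HBE.

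In the peroxisomal group, ABCD2 was the only gene called. ABCD2, which imports very long chain fatty acids into peroxisomes, lies at chr12:39943835-40013605 (minus strand) and had 136 (114 to 161), 188 (162 to 217) and 411 (372 to 453) reads in HBE, A549 and H1299. Its H1299 count was thus the high one, 3.66 times above HBE (3.01 to 4.48) and 2.40 times above A549 (2.02 to 2.87), the second ratio no longer called with TMM factors. Its levels, 0.738, 1.12 and 2.70, remained below the background level. ABCD3, the most abundant of the group, had 1780, 1816 and 1175 reads at levels between 11.4 and 16.04. ABCD4, a lysosomal protein of vitamin B12 transport, had 278, 315 and 312. Of 22 peroxisomal partner genes, 1 was higher in A549 against HBE, 1 higher and 2 lower in H1299 against HBE, and 2 higher in H1299 against A549. The gene higher in A549 was ACOX2, an oxidase of branched fatty acids, with 80 reads in HBE and 225 in A549, and ACAA1, a thiolase, and CAT, catalase, were those lower in H1299. PEX7, an import receptor, had 129 reads in A549 and 411 in H1299. PEX3, a peroxisome assembly factor, was higher in H1299 than in both other lines, with 444 reads in HBE against 323 in A549 and 899 in H1299.

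ABCC8 and ABCC9 encode the sulfonylurea receptors, which regulate potassium channels and are not known to transport a substrate. ABCC9 had 1307, 1910 and 1395 reads in HBE, A549 and H1299, and its level passed the background in HBE (4.55) and A549 (7.33) but not in H1299 (5.88). ABCC8 had 106, 156 and 139 reads. Neither they nor their channel partners KCNJ8 and KCNJ11 were called. In ABCC9, 9.47% of the 28 nt stretches of its GENCODE transcript also occur in other genes.

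The ABC proteins that act on ribosomes were above the background in every line, and 1 of the 4 was called. ABCE1, which splits the ribosome after termination, lies at chr4:146019440-146050676 (plus strand) and had 4180 reads in HBE against 3784 in A549 and 3750 in H1299, at levels of 28.9, 28.8 and 31.4. Its ratio of A549 over HBE was 0.998 (0.955 to 1.04). ABCF2 had 2434, 2332 and 2488 reads and ABCF3 886, 573 and 809. ABCF1, known to interact with initiation factor eIF2, lies at chr6:30539170-30564956 (plus strand) and had 1657, 1138 and 2304 reads at levels of 13.8, 10.5 and 23.3 and was the only one called, 2.23 times higher in H1299 than in A549 (2.07 to 2.39). All 4 genes lay below the coding median in A549 against HBE and above it in H1299 against A549, with group medians of -0.20 and 0.43 on the log2 scale. Of 13 partners in ribosome recycling and eIF2 control, none was called in A549 against HBE, 1 was higher and 1 lower in H1299 against HBE, and 1 was higher in H1299 against A549. The higher one was EIF2S1, the alpha subunit of eIF2, with 3133, 3102 and 5999 reads in HBE, A549 and H1299, and the lower one was EIF2S3, its gamma subunit, with 12114, 6150 and 3840.

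Of the family members under other names, TAP2, which carries peptides to HLA class I, had 1809 reads in HBE against 554 in A549 and 1160 in H1299. It was called lower in A549 than in HBE (ratio 0.338) and higher in H1299 than in A549 (2.30). TAP1, its partner, had 933, 464 and 485 reads and was not called, and CFTR, the chloride channel of cystic fibrosis, had 199, 264 and 183.

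Some members share sequence with other genes, and reads there may be uncertain. The stretches were compared by exact match among GENCODE transcripts, whereas the reads had been mapped to RefSeq RNA. Neither a shared stretch nor the lack of one shows how reads were placed, which was not tested. In ABCC6, 20.05% of the 28 nt stretches also occur elsewhere, nearly all in its pseudogenes ABCC6P1 and ABCC6P2, and in ABCE1 23.4%, mainly in unnamed gene models. In ABCF2 the share was 45.1%, mostly with the read-through gene ABCF2-H2BK1, in ABCA10 13.7% and in ABCB10 12.3%. ABCB6 shares 92.4% with 1 overlapping gene model that has no symbol. ABCC1, ABCC3 and ABCC4 share no such stretch with another gene, and ABCC2 shares 1, with ABCC6.

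The labels of the lines were checked on marker genes. HBE had the basal and epithelial genes KRT5 (11262 reads, beside 104 in A549 and 72 in H1299), KRT17, TP63 and CDH1 above the olfactory receptor level, which A549 and H1299 did not, while the basal keratin KRT14 was below it in each line. Other epithelial genes were not particular to HBE, since EPCAM was above the level in A549 too, and the keratins KRT8 and KRT18 were above it in all 3 lines and highest in A549. A549 was highest for the NRF2 targets NQO1, AKR1B10 and AKR1C1, and VIM, a mesenchymal filament gene, had 124, 15327 and 43694 reads in HBE, A549 and H1299. CDH2 and ZEB1 were listed with VIM as markers of H1299. The level of CDH2, at 2.09, 6.07 and 8.53, was above the olfactory receptor level in H1299 only, and ZEB1 was below it in each line. Of 9 markers of leukocytes, fibroblasts and endothelium, 7 were below the background level in every line. CDH5, an endothelial gene, was above it in HBE.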

How the data were processed

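The deposited values were, for each of 47239 RefSeq transcripts, a raw read count and an RPKM, for which the authors scaled this count by transcript length and by all mapped reads. Per the paper's methods, adapters were removed, reads were truncated at the first base with a Phred score under 10, and FANSe2 mapped them to RefSeq RNA. No FANSe2 version was found in the sources, and the submitters' processing notes name hg19. The count gives no position along a transcript, so coding frame and translational efficiency were not analysed.

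Counts of NM transcripts were summed per symbol and divided by the NM reads of the library. The 12 NM transcripts without a symbol entered only this total. Log2 ratios used 0.5 added read. Ratios carry exact 95% intervals from the binomial distribution of one count given both, and reads carry Poisson intervals (Python 3.11.15, scipy 1.17.1). Both cover counting error only. The interval was run on simulated counts drawn with the counting error that it assumes, which cannot show how far libraries of a line would differ. TMM and upper quartile factors came from edgeR 4.0.16, used for nothing else. No test across samples was run, since each line had 1 library. Positions are from GENCODE 44 lifted to GRCh37. Motifs were searched in translated open reading frames of GENCODE transcripts, since no RefSeq protein table was used.

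The members and lists were chosen with earlier results of these data known. Named are all called ABC genes, the 3 highest per line, 13 efflux, sterol, surfactant and translation genes fixed by name, and, of each partner list, at most 4 called genes by size of the ratio, besides the non-coding ABC transcripts with most reads. Others were named after their values were seen. Alternatives were other scalings, added non-coding transcripts, other minimum counts, folds and percentiles, 5 added reads and the deposited RPKM. Some genes are not reported here, nor drawn in the plots, but stay in the counts and medians.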

Additional observations from a re-analysis of the deposited data

Results flagged for a closer look

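Transcripts named for ABC genes but not coding were used in no comparison above, and a value is given here because it exceeds the 3 reads that a count of 0 allows; there was no control library. The pseudogene ABCA17P, which overlaps ABCA3 on the other strand and shares 136 stretches of 28 nt with it, had 474, 425 and 747 reads in HBE, A549 and H1299. ABCA11P, which shares 538 such stretches with ABCA10, had 198, 212 and 396 reads and was 2.42 times higher in H1299 than in HBE (95% interval 2.04 to 2.89). ABCC6P1, a near copy of part of ABCC6, had 31, 54 and 49 reads. ABCC13 (NR_003087) had 27, 30 and 31 reads, and the antisense transcript ABCC5-AS1 had 24, 28 and 31. The non-coding transcript of ABCA12 had 15, 22 and 8 reads beside the 29581, 33908 and 9026 on coding ones, and that of ABCD4 had 7 reads in HBE.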

How the results depend on the processing

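No paired analysis was possible because the design holds a single library of each line. Single called genes kept their call in 194 of 220 values recomputed. That none changed direction is no check, since each call lay beyond 2-fold and the scalings moved all genes of a pair alike by less than that. Other minimum counts and folds leave the ratio as it is, and a call cannot be lost at 1.5-fold or without a minimum. Nor could one be lost with 5 added reads, which enter only the log2 ratio, or at a minimum of 100 reads, which each called gene passed. Added non-coding transcripts gave reads to ABCA12 alone among the called genes. Many of the 220 values thus could not change, and the 194 does not measure how firm the calls are. In A549 against HBE, 8 genes were higher and 0 lower. The counts were 6 and 1 with TMM factors, 6 and 1 with upper quartile factors, 12 and 1 at 1.5-fold, 3 and 0 at 4-fold. ABCB6, ABCC1, ABCC2, ABCC3, ABCC4 and ABCG2 were called under each scaling. In H1299 against HBE, 3 were higher and 2 lower, and the counts were 2 and 5 with TMM factors, 2 and 3 with upper quartile factors, 2 and 4 without the 10 most read NM transcripts, 6 and 5 at 1.5-fold, 0 and 0 at 4-fold. In H1299 against A549, 2 were higher and 7 lower, and the counts were 1 and 7 with TMM factors, 1 and 8 per all mapped reads, 0 and 4 at 4-fold. The median log2 ratio of the ABC genes in A549 against HBE was 0.064 with TMM factors. In H1299 against HBE it was -0.12 with TMM factors, 0.081 with upper quartile factors and 0.074 without the 10 most read transcripts. The scaling itself moved all coding genes, whose share called higher and lower in A549 against HBE went from 6.14% and 3.36% to 3.39% and 5.74% with TMM factors, and in H1299 against HBE from 8.05% and 4.94% to 4.21% and 7.91%. With the 90th percentile of olfactory receptors, 22, 25 and 21 ABC genes were above it in HBE, A549 and H1299, and with the 99th percentile 1, 1 and 2. How far repeat cultures of a line would differ is not known from these data.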
